A study of Mus musculus with 12 samples.

Results

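The 30 genes described here encode enzymes that build sterols and fatty acids and proteins that control those enzymes. They were chosen by symbol for these roles, with earlier results of these data known. They comprise 7 enzymes of the mevalonate pathway, 11 enzymes that make and process squalene and the sterol ring, 6 proteins of sterol sensing and sterol transfer, and 6 lipogenic enzymes. All 30 were found among the 55416 genes of the deposited count table, and all 30 passed the filter on low counts that left 13250 genes for testing. The smallest count of any of them in any library was 27.

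RNA was sequenced from C2C12, an established mouse myoblast line that leaves the cell cycle and fuses into myotubes when serum is lowered. The 12 libraries fell into 4 groups of 3 replicates, which the labels call biological. The KO DM group holds cells labelled as Mapk14-/- that spent 5 days in differentiation medium (DM), DMEM with 2% horse serum. The KO GM group holds cells of the same label kept in growth medium (GM), high-glucose DMEM with 10% fetal bovine serum. The WT DM and WT GM groups hold wild-type cells in these media. The labels' protocol gives 1 culture length, 5 days, for staying in GM or moving to DM, and the GM groups are taken as having the same 5 days. How Mapk14 was edited, how many clones were used and whether replicates came from separate cultures or clones are not stated by the labels, so p-values measure the spread between these samples.

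Libraries held 8821669 to 11536396 counts, and levels are given as CPM, a library's counts scaled to a common total by TMM. Mapk14, which encodes the kinase p38 alpha, did not have a lower level in libraries with the KO label. It averaged 89.5 ± 4.67 CPM in KO DM and 91.3 ± 2.59 CPM in WT DM (SD, n = 3 each, edgeR adjusted p = 0.822), and 134 ± 3.58 CPM in KO GM and 124 ± 14.0 CPM in WT GM (edgeR adjusted p = 0.35). The counts therefore do not show the knockout at the RNA level, and every KO direction below is one between libraries by their labels. WT GM replicate 3 stood apart from the other WT GM libraries in differentiation: 12 muscle genes summed to 2378 CPM there, against 1654 and 1843 CPM in the others, and KO GM replicate 3 lay above the other KO GM libraries in the same way (568 CPM, against 373 and 304 CPM). For the sterol and fatty acid genes chosen above, results that rest on these libraries are given with and without them. For every other gene named below, results are given with all libraries only, and their dependence on these libraries was not tested.

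Cells make cholesterol from acetyl-CoA. The mevalonate pathway turns it into isoprene units and then into farnesyl diphosphate, and squalene synthase commits that product to sterols. The SREBP transcription factors, encoded by Srebf1 and Srebf2, are held in the endoplasmic reticulum with their escort SCAP by the INSIG proteins while sterols are plentiful. When sterols fall, SCAP carries them to the Golgi for cleavage, and the released factors raise genes of sterol synthesis (mainly SREBP2) and fatty acid synthesis (mainly SREBP1). Muscle is the tissue best known for the side effects of statins, which block this pathway.

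Promoter sequences were available from RefSeq (build GRCm38.p6) for 24 of the 30 genes, as windows of 250 bases before to 50 bases after an annotated start. The bases before the start are shown for 4 genes that rose strongly in DM, so that genes with different patterns can be compared. Hmgcs1 and Insig1 had a response of like size under both labels. Idi1 and Msmo1 had a response that differed between the labels in the main fit. Each is written 5′ to 3′ on the strand of the gene. Capitals mark the core of the sterol response element (TCACNCCAC), the NF-Y box (CCAAT, or ATTGG where it lies on the other strand) and the E-box (CACGTG).
Hmgcs1, chr13:119690101-119690350, plus strand: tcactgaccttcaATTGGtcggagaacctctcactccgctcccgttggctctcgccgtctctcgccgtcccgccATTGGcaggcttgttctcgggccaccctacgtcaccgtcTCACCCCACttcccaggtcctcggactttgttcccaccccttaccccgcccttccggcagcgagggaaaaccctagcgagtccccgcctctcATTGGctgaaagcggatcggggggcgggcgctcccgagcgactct
Insig1, chr5:28071162-28071411, plus strand: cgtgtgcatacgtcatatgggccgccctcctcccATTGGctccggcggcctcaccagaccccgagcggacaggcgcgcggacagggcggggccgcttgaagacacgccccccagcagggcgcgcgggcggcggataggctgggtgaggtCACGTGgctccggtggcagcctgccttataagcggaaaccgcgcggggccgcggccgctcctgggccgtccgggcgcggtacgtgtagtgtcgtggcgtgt
Idi1, chr13:8885356-8885605, plus strand: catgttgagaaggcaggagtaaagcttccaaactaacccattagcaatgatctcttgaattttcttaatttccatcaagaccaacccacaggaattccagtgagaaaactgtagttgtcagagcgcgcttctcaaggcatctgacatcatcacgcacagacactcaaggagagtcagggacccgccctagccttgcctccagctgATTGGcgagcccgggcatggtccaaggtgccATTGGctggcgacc
Msmo1, chr8:64733579-64733828, minus strand: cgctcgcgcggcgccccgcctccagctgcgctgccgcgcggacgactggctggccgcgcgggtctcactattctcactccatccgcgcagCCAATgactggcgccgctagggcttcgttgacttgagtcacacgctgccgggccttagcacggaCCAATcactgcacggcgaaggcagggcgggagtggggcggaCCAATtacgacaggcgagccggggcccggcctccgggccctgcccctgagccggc

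Across the full windows, searched on both strands with overlapping matches counted, CCAAT stood in 21 of the 32 promoters of these genes (65.6%), against 38.1% of the 12648 promoters of tested genes. Counted by gene, 20 of 24 held it (83.3%), against 43.5% of tested genes. CACGTG stood in 6 of 32 promoters (18.8%), against 9.79%. The element TCACNCCAC stood in 1 of 32 (3.12%), against 1.11%, and that 1 was Hmgcs1, where it begins 137 bases before the start. Msmo1 held 3 CCAAT boxes and Hmgcs1 held 4 in the whole window, of which 3 lie in the bases shown. A match is a run of letters and not a bound site, and genes with several annotated starts contribute several windows.

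Per kilobase of transcript, which allows levels to be compared between genes, the fatty acid desaturase gene Scd2 was the most abundant in WT DM at 302 CPM per kb. Fdps (100.4 CPM per kb, range 90.8 to 111) and Scd1 (96.8, range 92.8 to 101) came next and did not differ beyond their spread. Srebf2 followed at 68.7 and Sqle at 55.0 CPM per kb, and Tm7sf2 was lowest at 4.64. The mean level was highest in WT DM for 22 of the 30 genes, in KO DM for 5 and in KO GM for 3 (Acly, Elovl6 and Scap). It was lowest in KO DM for 3, in KO GM for 12, in WT DM for 2 and in WT GM for 13.

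**Figure D1:**
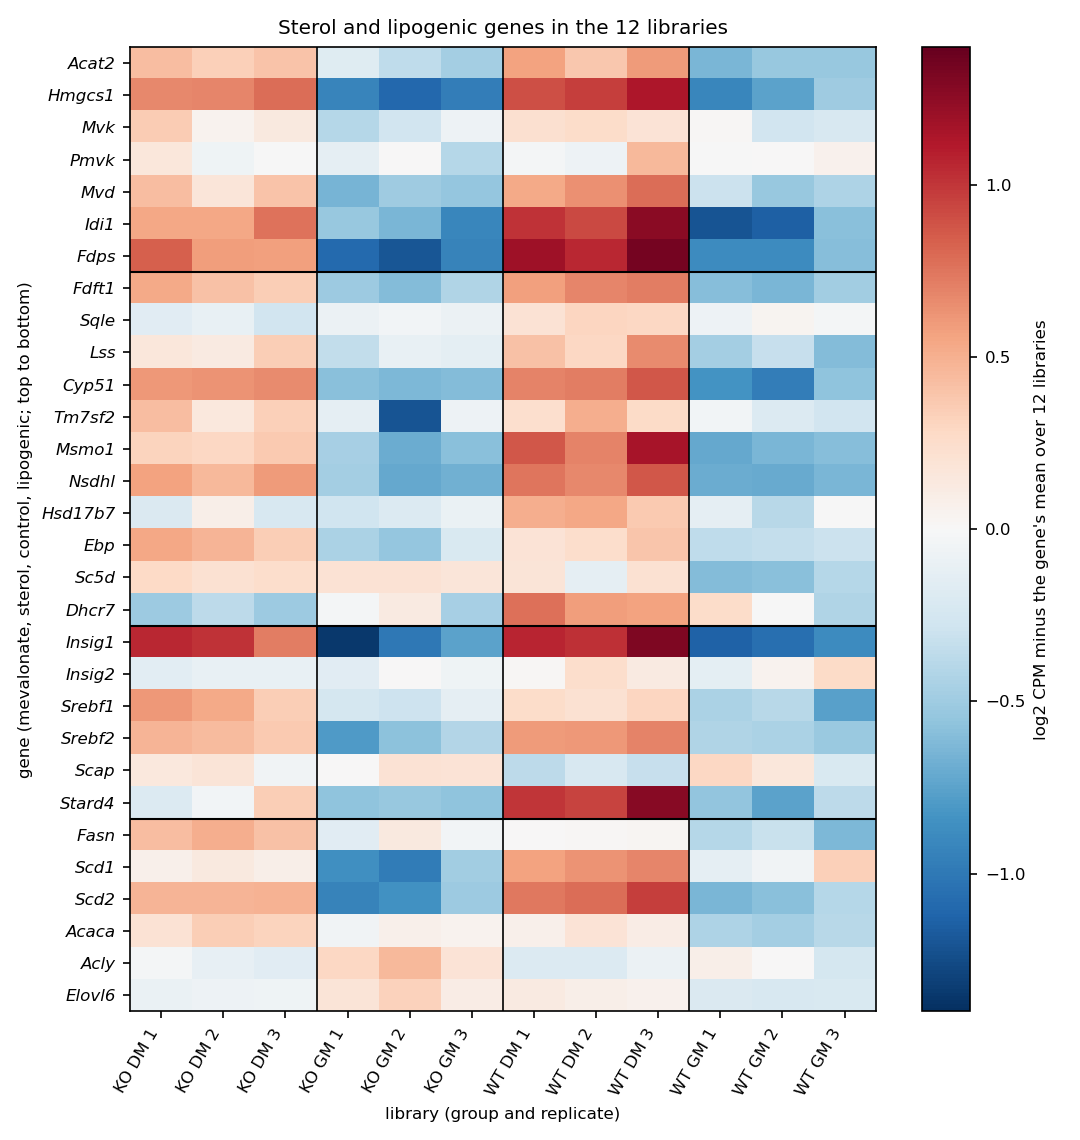
Level of each of the 30 genes (down the page, in the order of their roles) in each of the 12 libraries (across), as log2 CPM minus the gene's own mean over all libraries. Red is above and blue below that mean. Most genes are red in the DM libraries and blue in the GM libraries of both labels, with Insig1, Fdps, Idi1 and Hmgcs1 showing the widest range, while Sqle, Sc5d, Dhcr7, Acly and Elovl6 follow other patterns in the KO-labelled cells.

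The response to differentiation medium was a broad rise of sterol synthesis genes in cells of both labels. In KO-labelled cells 21 of the 30 genes rose in DM and 2 fell, and in WT cells 25 rose and 1 fell (edgeR's quasi-likelihood test, Benjamini-Hochberg adjusted p below 0.05 over all genes tested). Over all 13250 genes the shares called were 20.8% higher and 19.8% lower in KO-labelled cells, and 18.4% higher and 14.8% lower in WT cells. The median log2 fold change of the 30 genes was 0.71 in KO-labelled and 0.73 in WT cells, against -0.00103 and -0.0082 over all genes tested. A rise of at least 2-fold was called for 8 of the 30 genes in KO-labelled and 13 in WT cells. Over all 13250 genes it was called for 946 and 894.

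Relative to TMM-scaled library sizes, the 30 transcripts made up 0.376% in KO DM, against 0.223% in KO GM. They made up 0.442% in WT DM, against 0.232% in WT GM. Summed CPM was 3761 ± 51.0 in KO DM and 2231 ± 141 in KO GM, and 4422 ± 255 in WT DM and 2317 ± 76.7 in WT GM (SD, n = 3 each). All 3 libraries of DM lay apart from all 3 of GM, on the higher side for 22 genes and the lower side for 3 in KO-labelled cells, where 50.7% of all genes parted in either direction. In WT cells this held for 26 genes on the higher side and 1 on the lower, where 44.3% of all genes parted. In bulk RNA, fewer cells of a type and less RNA per cell cannot be told apart.

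**Figure D2:**
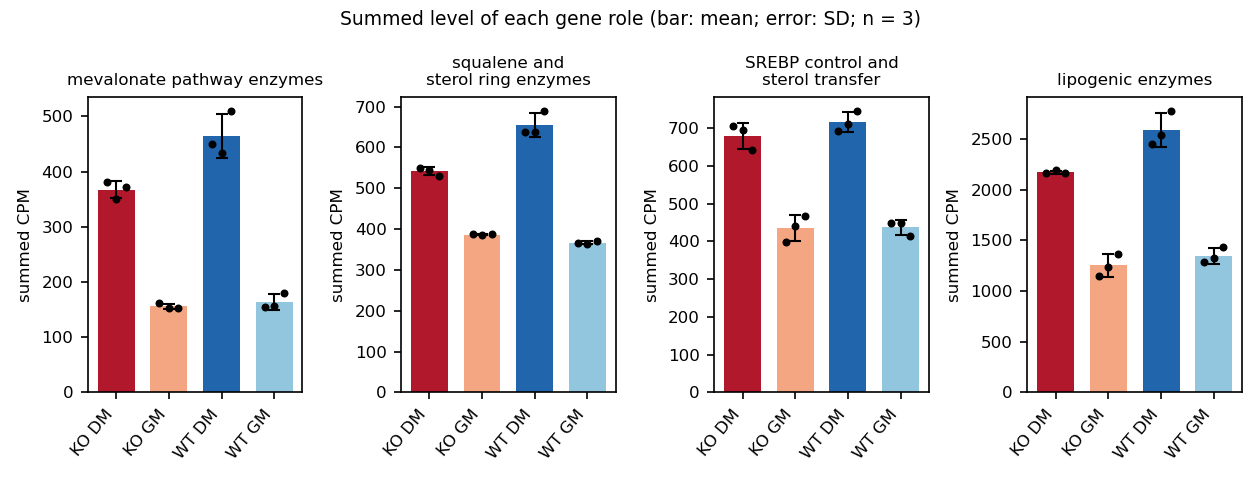
Summed CPM of the genes of each role in the 4 groups, with bars for the mean, error bars for the SD and points for the 3 libraries. In every role the DM libraries lie above the GM libraries of the same label, and the KO DM bars are lower than the WT DM bars for the mevalonate (367 against 464 CPM), sterol ring (542 against 654 CPM) and lipogenic genes (2172 against 2587 CPM).

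Of the 7 mevalonate pathway enzymes, 6 rose in DM in KO-labelled cells and 6 in WT cells. Hmgcs1, the HMG-CoA synthase, had 102, 102 and 109 CPM in KO DM, against 33.6, 29.7 and 32.5 CPM in KO GM. In WT cells it had 119, 125 and 139 CPM in DM, against 33.6, 37.9 and 45.1 CPM in GM. No DM library came near a GM library, and the log2 fold change was 1.71 ± 0.10 under both labels (edgeR adjusted p = 7.3e-12 in KO-labelled and 9.97e-12 in WT cells). Fdps, which makes farnesyl diphosphate, had 108, 90.9 and 89.9 CPM in KO DM, against 28.5, 26.3 and 31.7 CPM in KO GM. It had 137, 126 and 154 CPM in WT DM, against 32.8, 32.9 and 40.1 CPM in WT GM. These are rises of 1.74 ± 0.10 and 1.97 ± 0.10 in KO-labelled and WT cells, in groups that did not overlap. Fdps shares 26.7% of its exon bases with Gm43738 on the same strand in the GENCODE M21 annotation, and Gm43738 had 0 counts in every library.

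Idi1, the isomerase that makes the starter unit of isoprene chains, had 52.5, 52.4 and 60.9 CPM in KO DM, against 24.9, 23.1 and 19.1 CPM in KO GM. WT cells had 72.5, 68.2 and 86.2 CPM in DM, against 15.6, 16.3 and 24.0 CPM in GM. The DM and GM libraries were well apart under both labels, a 2.48-fold rise in KO-labelled and a 4.05-fold rise in WT cells (log2 1.31 ± 0.14 and 2.02 ± 0.14). Acat2, the cytosolic thiolase of the first step, rose by 0.72 ± 0.09 in KO-labelled and 1.08 ± 0.09 in WT cells. Its close relative Acat3 had 252 to 405 counts per library, so the split of reads between them is uncertain. Mvd, the decarboxylase, rose by 0.90 ± 0.14 and 1.08 ± 0.14, and Mvk, the mevalonate kinase, by 0.42 ± 0.12 and 0.38 ± 0.12. The WT call of Mvk ended without WT DM replicate 2 (edgeR adjusted p = 0.064) or WT GM replicate 2 (0.0981). Pmvk, the next kinase of the chain, was the mevalonate gene with no call: its log2 fold change was 0.20 ± 0.17 in KO-labelled and 0.12 ± 0.17 in WT cells (edgeR adjusted p = 0.367 and 0.618).

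Among the 11 squalene and sterol ring enzymes, 7 rose in KO-labelled cells and 10 in WT cells. Cyp51, the lanosterol demethylase, had 95.2, 96.6 and 99.2 CPM in KO DM, against 41.5, 40.5 and 41.1 CPM in KO GM. It had 101, 103 and 114 CPM in WT DM, against 35.1, 32.0 and 42.3 CPM in WT GM. The groups lay far apart, with rises of 1.24 ± 0.09 in KO-labelled and 1.54 ± 0.09 in WT cells. Fdft1, the squalene synthase, rose by 0.94 ± 0.08 and 1.23 ± 0.08, and Nsdhl, a sterol dehydrogenase, by 1.16 ± 0.10 and 1.45 ± 0.10. Fdft1 overlaps Ctsb on the opposite strand over 18.3% of its exon bases. Scap overlaps 5830462I19Rik (13.2%) and Hmgcs1 overlaps Gm48342 (12.1%) in the same way. The strand setting of the counting is not known here.

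Lss, the lanosterol synthase, rose by 0.41 ± 0.12 in KO-labelled and 0.93 ± 0.13 in WT cells, and its KO call ended without KO DM replicate 3 (edgeR adjusted p = 0.0704) or KO GM replicate 1 (0.0592). Ebp, the sterol isomerase, rose by 0.84 ± 0.09 and 0.60 ± 0.09. It was 1 of 7 genes whose log2 fold change, with its sign kept, was higher in KO-labelled cells. Tm7sf2, a sterol reductase with under 8 CPM in every library, rose in KO-labelled cells (0.70 ± 0.24, edgeR adjusted p = 0.0239) and was at 0.50 ± 0.24 in WT cells (0.115). Its difference between the responses, KO-labelled minus WT, was not called (0.20, edgeR adjusted p = 0.786). The KO call of Tm7sf2 rested on KO GM replicate 2, at 2.34 CPM, without which the change was 0.41 (edgeR adjusted p = 0.168), and it also ended without KO DM replicate 1 (0.0697) or KO DM replicate 3 (0.0582). Tm7sf2 shares 12.1% of its exon bases with Vps51 on the same strand.

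For 4 further sterol ring enzymes the response itself differed between the labels, by the test given further on. Sqle, the squalene epoxidase, had 113, 118 and 105 CPM in KO DM, against 119.6, 123 and 119 CPM in KO GM. WT cells had 145, 156 and 154 CPM in DM, against 120.5, 129.7 and 124 CPM in GM. WT cells in DM thus stood above all other groups, a rise of 0.28 ± 0.07 (edgeR adjusted p = 0.00271), while the KO-labelled change was -0.11 ± 0.07 (0.226). Msmo1, the sterol methyl oxidase, had 30.3, 29.9 and 31.5 CPM in KO DM, against 17.7, 15.1 and 16.3 CPM in KO GM. It had 44.5, 39.6 and 54.4 CPM in WT DM, against 14.9, 15.7 and 16.2 CPM in WT GM. GM levels overlapped between the labels, DM levels did not, and the rise was 0.90 ± 0.12 in KO-labelled and 1.57 ± 0.12 in WT cells.

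Sc5d, the sterol desaturase, had 46.4, 44.5 and 45.3 CPM in KO DM, against 44.0, 44.2 and 43.1 CPM in KO GM. It had 43.3, 35.1 and 44.3 CPM in WT DM, against 25.2, 25.6 and 29.1 CPM in WT GM. WT GM was the low group, so that WT cells rose by 0.62 ± 0.10 (edgeR adjusted p = 4.34e-05) and KO-labelled cells were at 0.05 ± 0.10 (0.696). Dhcr7, the reductase of the last step to cholesterol, had 23.5, 25.9 and 23.5 CPM in KO DM, against 32.6, 36.5 and 24.2 CPM in KO GM. In WT cells it had 56.7, 49.9 and 49.2 CPM in DM, against 39.8, 33.1 and 25.0 CPM in GM. WT DM was the high group: WT cells rose by 0.67 ± 0.15 (edgeR adjusted p = 0.00249), and KO-labelled cells were at -0.36 ± 0.16 (0.0858). The KO-labelled fall of Dhcr7 was called in 6 of 23 alternative fits. These were the fits without KO GM replicate 3 (-0.51, 0.00703), without WT GM replicate 3 (0.0344) and without both (0.000381). With all libraries of the groups kept, they were no filter on low counts (0.0104), only the groups compared (0.0416) and a replicate block (0.0262). Hsd17b7, the sterol ketoreductase, had 15.2 to 18.9 CPM in KO DM and 14.7 to 16.7 CPM in KO GM (0.08 ± 0.13, edgeR adjusted p = 0.68). Its WT rise, to 23.0 to 25.9 CPM in DM against 13.6 to 17.8 CPM in GM, was 0.63 ± 0.13 (0.000508). For Hsd17b7 the difference between the responses, KO-labelled minus WT, was not called in the main fit (-0.56, edgeR adjusted p = 0.0613).

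The 6 control and transfer genes included the largest response. Insig1, which retains SCAP and is itself an SREBP target, had 44.9, 43.5 and 35.7 CPM in KO DM, against 8.48, 10.8 and 12.9 CPM in KO GM. It had 45.4, 44.0 and 53.5 CPM in WT DM, against 9.87, 10.4 and 11.8 CPM in WT GM. Levels under both labels overlapped within each medium, and the rises were 3.82-fold in KO-labelled and 4.45-fold in WT cells (log2 1.94 ± 0.14 and 2.15 ± 0.14). Its relative Insig2 was at -0.05 ± 0.09 and 0.06 ± 0.09 (edgeR adjusted p = 0.696 and 0.641), with overlapping groups at 65.9 to 88.2 CPM in all 12 libraries.

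Srebf2 had 312, 306 and 289.9 CPM in KO DM, against 129.8, 151 and 169 CPM in KO GM. It had 340.2, 343 and 363 CPM in WT DM, against 168, 166 and 157 CPM in WT GM. Media were clearly apart, a 2.02-fold rise in KO-labelled and a 2.13-fold rise in WT cells. Srebf1 rose less, by 0.72 ± 0.09 in KO-labelled and 0.78 ± 0.09 in WT cells, which is 1.64-fold and 1.72-fold. Scap fell in WT cells, by 0.40 ± 0.11 (edgeR adjusted p = 0.00579), to 72.1, 80.1 and 74.3 CPM in WT DM against 114, 104 and 80.2 CPM in WT GM. The KO-labelled change of Scap was -0.04 ± 0.10 (0.81), with 90.3 to 106 CPM in KO DM and 93.5 to 107 CPM in KO GM. Its difference between the responses, KO-labelled minus WT, was not called in the main fit (0.36, edgeR adjusted p = 0.138). Stard4, which carries cholesterol between membranes, had 15.3, 17.0 and 22.2 CPM in KO DM, against 11.8, 12.1 and 11.9 CPM in KO GM. In WT cells it had 35.1, 33.7 and 42.3 CPM in DM, against 11.9, 10.4 and 13.6 CPM in GM. The GM groups were alike in level and the DM groups did not overlap, and the rise was 1.52-fold in KO-labelled and 3.09-fold in WT cells (log2 0.61 ± 0.15 and 1.63 ± 0.14).

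The 6 lipogenic enzymes split. Scd2, a desaturase that makes monounsaturated fatty acids, had 1292, 1285 and 1295 CPM in KO DM, against 483, 516 and 651 CPM in KO GM. It had 1539, 1596 and 1806 CPM in WT DM, against 594, 619 and 699.6 CPM in WT GM. DM and GM libraries were far apart, and Scd2 rose by 1.23 ± 0.10 in KO-labelled and 1.37 ± 0.10 in WT cells. Scd1, a second desaturase, had 319, 334 and 320.1 CPM in KO DM, against 167, 153 and 216 CPM in KO GM. It had 448, 468 and 486 CPM in WT DM, against 277, 292 and 380.4 CPM in WT GM. Each KO-labelled group lay below the WT group in the same medium, and the rises were 0.86 ± 0.12 in KO-labelled and 0.56 ± 0.12 in WT cells.

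Fasn, the fatty acid synthase, rose by 0.46 ± 0.08 under both labels. Acaca, the carboxylase that makes malonyl-CoA, rose by 0.26 ± 0.07 in KO-labelled and 0.55 ± 0.08 in WT cells. Acly, which makes acetyl-CoA in the cytosol from citrate, went the other way, with 164, 154 and 149.7 CPM in KO DM, against 203, 228 and 191 CPM in KO GM (a fall of 0.41 ± 0.08, edgeR adjusted p = 0.000407). In WT cells it was at -0.10 ± 0.08 (0.372), and it was called lower without WT GM replicate 3 (-0.20, 0.0466) or without both GM replicate 3 libraries (-0.20, 0.022). The difference between the responses of Acly, KO-labelled minus WT, was not called (-0.31, edgeR adjusted p = 0.113). Elovl6, an elongase of long-chain fatty acids, had 31.4, 31.9 and 32.0 CPM in KO DM, against 38.01, 41.7 and 35.8 CPM in KO GM. It had 36.4, 35.3 and 34.8 CPM in WT DM, against 29.0, 28.7 and 28.7 CPM in WT GM. The groups did not overlap under either label, and the direction differed: Elovl6 fell by 0.28 ± 0.09 in KO-labelled cells (edgeR adjusted p = 0.0166) and rose by 0.30 ± 0.09 in WT cells (0.0137). The KO call ended without KO DM replicate 1 (0.0729), KO DM replicate 2 (0.0641) or KO GM replicate 2 (0.122), and the WT call without WT DM replicate 1 (0.0538) or WT GM replicate 2 (0.0522).

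**Figure D3:**
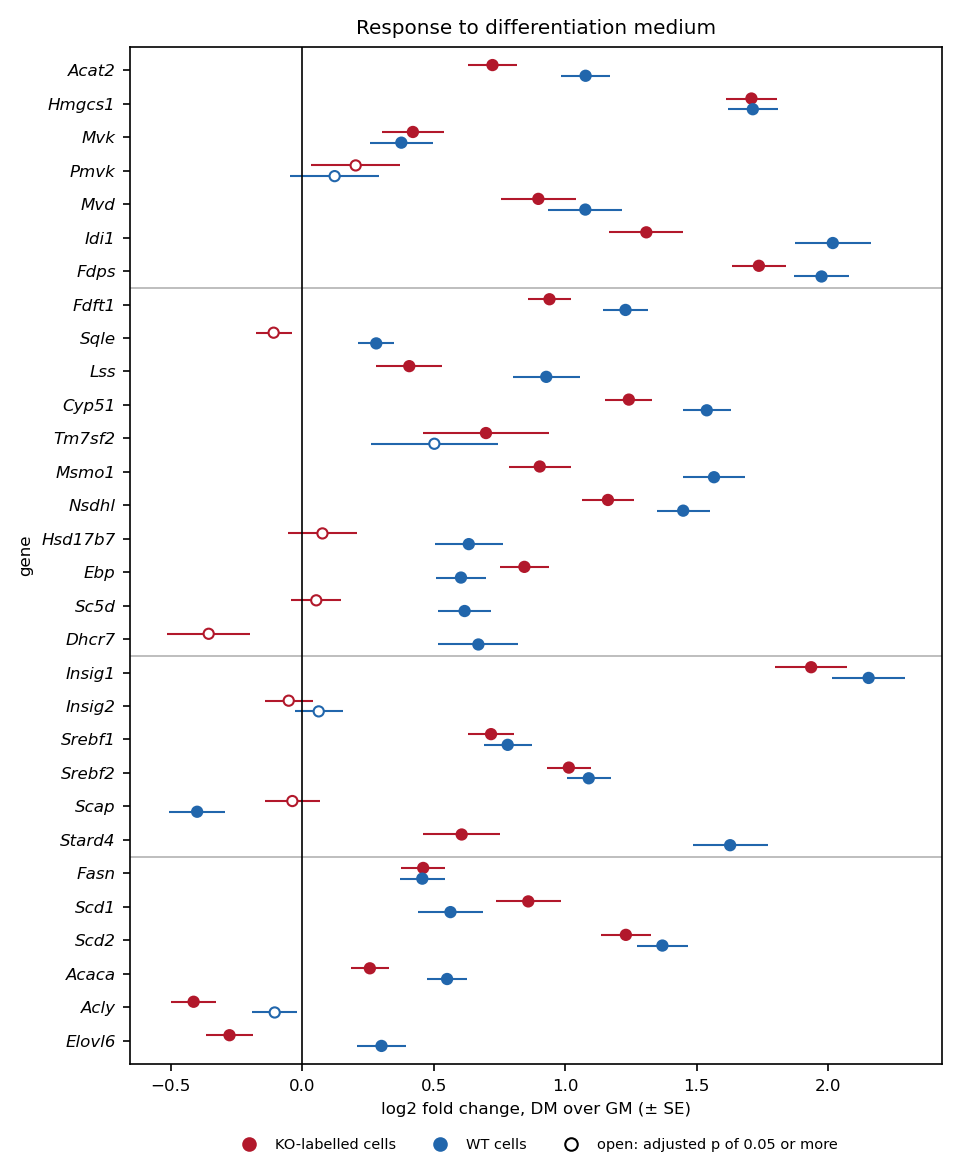
Log2 fold change of each gene in DM over GM (± SE) in KO-labelled cells (red) and WT cells (blue), from 3 libraries per group. Filled points passed an adjusted p of 0.05. Most points lie right of 0 under both labels, the WT point lies further right for 23 of the 30 genes, and Acly and Elovl6 are the filled points left of 0 in KO-labelled cells, with Scap in WT cells.

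The order of the 30 genes by response was similar under the labels. Across genes, the log2 fold changes in KO-labelled and WT cells had Pearson r = 0.855 and Spearman rho = 0.838 (n = 30 genes). The 2 comparisons share no library, and genes are not independent replicates. With its sign kept, the log2 fold change was higher in KO-labelled cells for 7 genes and in WT cells for 23. Over all genes tested, the median difference, KO-labelled minus WT, was -0.01.

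Between the labels in DM, 12 of the 30 genes were at a lower level in KO-labelled cells and 3 at a higher level by edgeR's test. The shares over all genes were 17.4% lower and 13.6% higher. The median log2 fold change was -0.21, against -0.02 over all genes tested. The libraries of the groups did not overlap on the higher side for 5 genes and on the lower side for 17, and 47.5% of all genes parted in either direction. Since the same WT DM and KO DM libraries enter the responses above, these differences are another view of the same values.

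The largest differences in DM were in Dhcr7 and Stard4, whose KO DM libraries all lay below the WT DM libraries. Dhcr7 was 0.469 times its WT DM level (-1.09 ± 0.15, edgeR adjusted p = 4e-05) and Stard4 0.491 times (-1.03 ± 0.14, 3.85e-06). Of the mevalonate enzymes 3 were lower, Fdps by -0.53 ± 0.10 (edgeR adjusted p = 0.000167), Idi1 by -0.45 ± 0.13 (0.0129) and Hmgcs1 by -0.29 ± 0.09 (0.015). The calls of Idi1 and Hmgcs1 ended without KO DM replicate 1, KO DM replicate 2 or WT DM replicate 3 (adjusted p = 0.0752 to 0.137 over these fits). Of the sterol ring enzymes 5 were lower, Dhcr7 and Msmo1 (-0.60 ± 0.11), Hsd17b7 (-0.58 ± 0.13), Sqle (-0.44 ± 0.07) and Fdft1 (-0.23 ± 0.08, edgeR adjusted p = 0.0342). Fdft1 lost its call in 10 of 23 alternative fits, among them scaling by total counts alone (0.0786) and the fits without KO DM replicate 2 or 3, WT DM replicate 2 or 3, or WT GM replicate 1 (adjusted p = 0.0548 to 0.167).

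Among the control genes, Scap was higher in KO DM than in WT DM by 0.40 ± 0.11 (edgeR adjusted p = 0.00605) and Srebf1 by 0.24 ± 0.09 (0.0407), with 162, 154 and 135 CPM in KO DM, against 127, 124 and 131 CPM in WT DM. Insig2 was lower, at 66.4, 68.3 and 68.1 CPM in KO DM, against 74.2, 86.6 and 80.0 CPM in WT DM (-0.25 ± 0.09, edgeR adjusted p = 0.0413). The Insig2 call was lost in 14 of 23 alternative fits, including those without any 1 of the KO DM libraries, KO GM replicate 1 or 2, WT DM replicate 2 or 3, or WT GM replicate 2 (adjusted p up to 0.221). The Srebf1 call was lost in 5, including those without KO DM replicate 1 or 2 or WT DM replicate 1 or 2 (adjusted p up to 0.133). Insig1 and Srebf2 were at -0.21 ± 0.12 and -0.20 ± 0.08 (edgeR adjusted p = 0.214 and 0.0609), and Srebf2 was called lower without KO GM replicate 1 (0.0389), KO GM replicate 3 (0.0399) or both GM replicate 3 libraries (0.02).

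The lipogenic genes went both ways. Fasn was higher in KO DM, with 277, 294 and 273 CPM, against 207, 208 and 209.7 CPM in WT DM (0.43 ± 0.08, edgeR adjusted p = 0.000364). Scd1 (-0.53 ± 0.12) and Scd2 (-0.35 ± 0.09) were lower, and the Scd2 call ended without WT DM replicate 3 (edgeR adjusted p = 0.0655). Acaca, Acly and Elovl6 were at 0.16 ± 0.07, 0.06 ± 0.08 and -0.16 ± 0.09 with no call, and Acaca was called higher without KO DM replicate 1 (0.0449) or both GM replicate 3 libraries (0.0396). The remaining genes with no call were Acat2, Mvk, Pmvk, Mvd, Lss, Cyp51, Tm7sf2, Nsdhl, Ebp and Sc5d, at log2 fold changes of -0.32 to 0.18. Ebp among them was called higher without both GM replicate 3 libraries (0.043).

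In GM 5 of the 8 genes that differed between the labels were lipogenic. Of the 30 genes 6 were higher and 2 lower in KO GM than in WT GM by edgeR's test, where the shares over all genes were 10% and 10.6%, so that the share of these genes called lower is close to the background. The median log2 fold change was 0.0037, against -0.0049 over all genes tested. The libraries did not overlap on the higher side for 7 genes and on the lower side for 3. That is close to the background, as 32.3% of all genes parted in either direction. Of the 6 lipogenic enzymes 4 were higher and 1 lower.

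Fasn had 185, 227 and 201 CPM in KO GM, against 156, 166 and 133 CPM in WT GM (0.43 ± 0.08, edgeR adjusted p = 0.000703), a difference of the same size as in DM. Acaca had 70.1, 76.3 and 74.8 CPM in KO GM, against 53.7, 52.1 and 55.5 CPM in WT GM (0.46 ± 0.08, 0.00011). Elovl6 was higher by 0.42 ± 0.09 (edgeR adjusted p = 0.0017) and Acly by 0.36 ± 0.08 (0.00305), both in libraries that did not overlap. Scd1 was lower, at 0.565 times its WT GM level (-0.82 ± 0.12, edgeR adjusted p = 0.000171). Scd2 was at -0.21 ± 0.09 (0.123), and it was called lower without KO GM replicate 3 (-0.36, 0.00207).

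Sc5d was the sterol ring gene that was higher in KO GM than in WT GM, by 0.72 ± 0.10 (edgeR adjusted p = 1.3e-05). Srebf1 was higher by 0.31 ± 0.09 (edgeR adjusted p = 0.0195), a call that ended without KO GM replicate 3 (0.0753), without WT GM replicate 3 (0.106) and without both (0.248). Hmgcs1 was lower by -0.29 ± 0.10 (edgeR adjusted p = 0.0461), and this call was lost in 12 of 23 alternative fits, with -0.17 (0.23) without WT GM replicate 3. It also ended without KO DM replicate 1 or 2, KO GM replicate 2 or 3, WT DM replicate 2 or WT GM replicate 2 (adjusted p = 0.0516 to 0.165). Fdps was at -0.29 ± 0.11 (0.0625) and was called lower in 5 alternative fits, among them the one without KO GM replicate 3 (0.0272). Idi1 at 0.26 ± 0.15 (0.27) was called higher without WT GM replicate 3 (0.47, 0.0139). The other 19 genes lay between -0.23 and 0.27 with no call. Of these, Acat2 (0.0432) and Srebf2 (0.0473) were called without KO GM replicate 3, and Cyp51 (0.0256) without WT GM replicate 3.

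**Figure D4:**
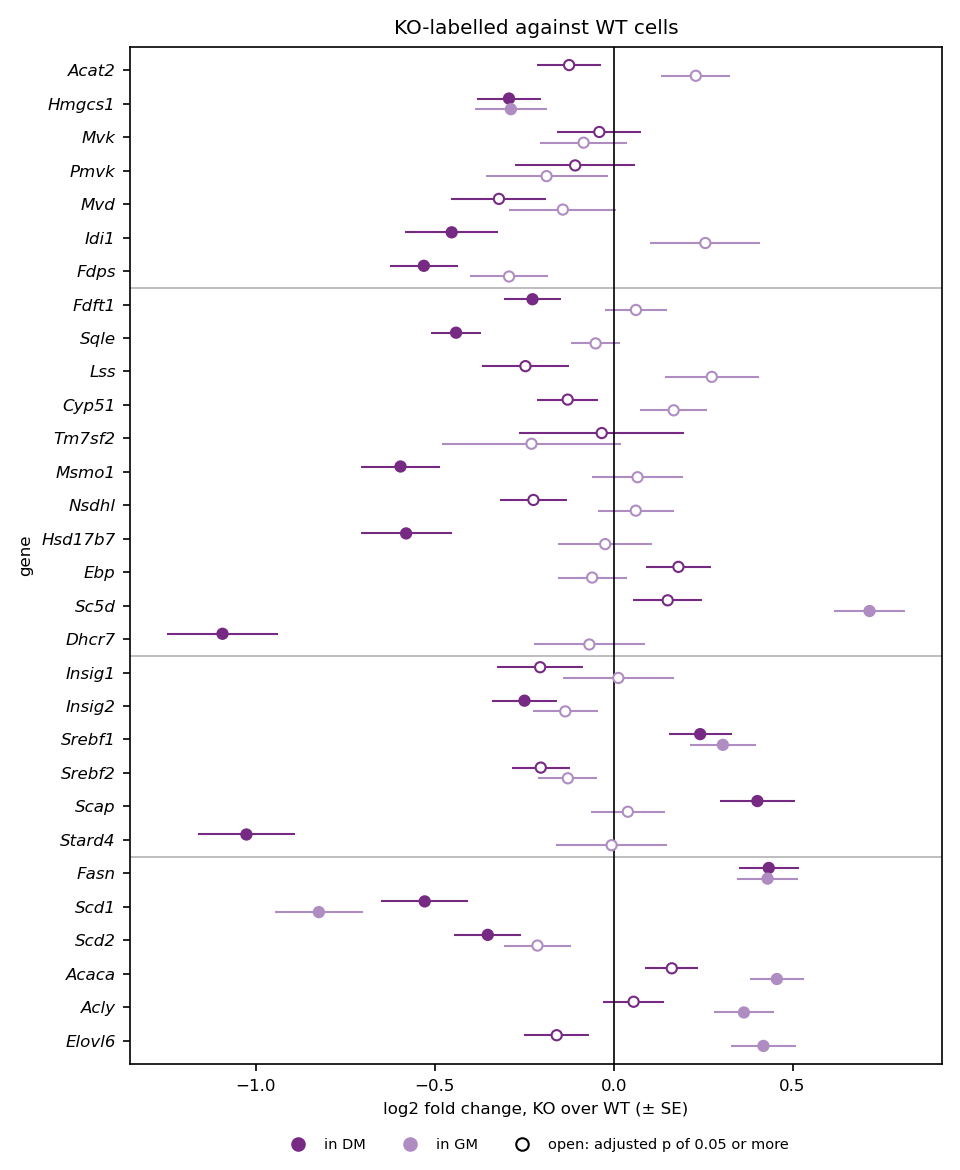
Log2 fold change of each gene in KO-labelled over WT cells (± SE), in DM (dark) and in GM (light), from 3 libraries per group. Filled points passed an adjusted p of 0.05. In DM the filled points lie mostly left of 0, with Dhcr7 and Stard4 furthest, and in GM the filled points lie mostly right of 0 among the lipogenic genes and Sc5d, with Scd1 and Hmgcs1 left of 0 in both media.

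The difference between the responses was tested directly, as the log2 fold change in DM over GM of KO-labelled cells minus that of WT cells. It was negative for 7 of the 30 genes by edgeR's test, where 5.25% of all genes were called negative. It was called positive for 0 of the 30, where 3.61% of all genes were. At an unadjusted p below 0.05, 1 gene was positive and 14 were negative, and DESeq2 and limma-voom each called 0 positive and 7 negative. The shares above are of edgeR's adjusted calls and do not apply to these counts, whose shares over all genes are not given. The median over the 30 genes was -0.26, against -0.01 over all genes tested, and 23 of the 30 estimates were negative.

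Dhcr7 and Stard4 had the largest differences, -1.03 ± 0.22 (edgeR adjusted p = 0.00812) and -1.02 ± 0.21 (0.0031). Idi1 was at -0.71 ± 0.20 (edgeR adjusted p = 0.035), Msmo1 at -0.66 ± 0.17 (0.0153), Elovl6 at -0.58 ± 0.13 (0.00632), Sc5d at -0.56 ± 0.14 (0.0129) and Sqle at -0.39 ± 0.10 (0.0141). These 7 genes did not reach the difference by 1 pattern. Stard4, Idi1 and Msmo1 rose under both labels and less in KO-labelled cells. Sqle, Sc5d and Dhcr7 rose in WT cells and were not called in KO-labelled cells in the main fit, though Dhcr7 was called lower there in 6 of 23 alternative fits. Elovl6 was called in opposite directions.

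Calls of Dhcr7, Stard4 and Elovl6 held in all 22 alternative fits. The call of Idi1 was lost in 8 of them, when KO DM replicate 1 or 2, KO GM replicate 1 or 2, WT DM replicate 1 or 3, or WT GM replicate 1 or 2 was left out (adjusted p = 0.0645 to 0.113). Sqle lost its call without KO DM replicate 3 (0.0614), KO GM replicate 2 (0.0505) or WT DM replicate 2 (0.0542), Msmo1 without KO GM replicate 1 (0.0549) or WT DM replicate 3 (0.0672), and Sc5d without WT DM replicate 3 (0.0568). Without both GM replicate 3 libraries 12 of the 30 genes were called, 2 positive and 10 negative. The 5 added were Acat2 (edgeR adjusted p = 0.0261), Cyp51 (0.0195), Hsd17b7 (0.0407), Scap (0.000635) and Scd1 (0.0135), with Scap and Scd1 positive. Leaving out WT GM replicate 3 alone added Cyp51, Hsd17b7 and Scap, and leaving out KO GM replicate 3 alone added Acat2 and Scd1. For Hmgcs1, Fasn and Srebf1 the estimate was -0.01 ± 0.14, 0.00 ± 0.12 and -0.06 ± 0.13 (edgeR adjusted p = 0.99, 0.994 and 0.822).

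**Figure D5:**
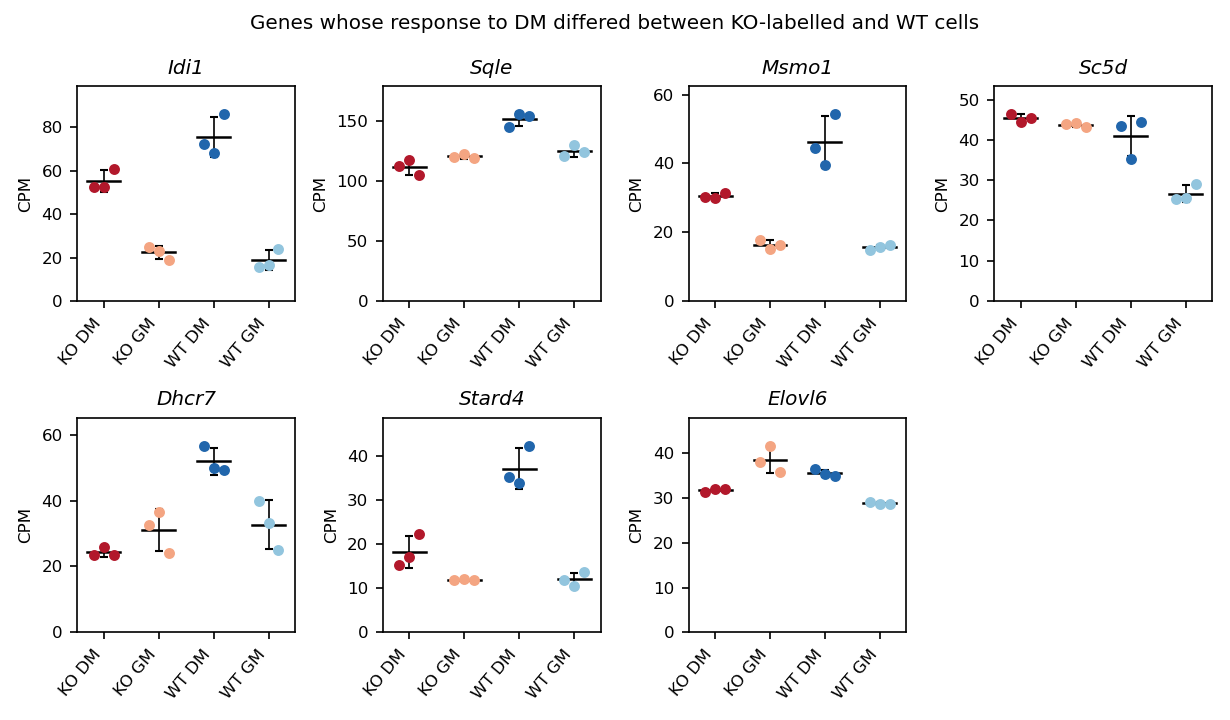
CPM of the 7 genes whose response to DM differed between KO-labelled and WT cells, in the 4 groups. Points are libraries, long lines the mean of 3 and error bars the SD. Stard4, Idi1 and Msmo1 climb in DM under both labels but less in KO-labelled cells, Sqle and Dhcr7 stand highest in WT DM, Sc5d is lowest in WT GM, and Elovl6 is highest in KO GM.

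In 7 lists of neighbouring steps of lipid metabolism, the counts below stand beside shares over all genes of 20.8% higher and 19.8% lower in DM in KO-labelled cells, and 18.4% higher and 14.8% lower in WT cells. With lists this short, counts near those shares, such as those of the isoprenoid, sterol uptake and WT glycerolipid genes, are not read as a result about the list. Of 8 genes that cleave SREBPs or turn over INSIG proteins, 3 rose and 3 fell in DM in KO-labelled cells and 1 fell in WT cells. Mbtps1, the Golgi protease that makes the first cut, rose by 0.34 ± 0.06 in KO-labelled cells (edgeR adjusted p = 0.000159), with a difference of the responses, KO-labelled minus WT, of 0.29 ± 0.09 (0.0479). Of 13 genes of the isoprenoid branch and of prenylation, 3 fell in DM under each label. Zmpste24, a protease of lamin maturation, was among them (-0.51 ± 0.07 in KO-labelled and -0.37 ± 0.07 in WT cells).

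Of 7 tested genes of acetyl-CoA and ketone supply, 3 rose and 1 fell under each label. Acss2, which makes acetyl-CoA from acetate, had 11.96, 10.6 and 11.6 CPM in KO DM, against 10.4, 13.0 and 12.7 CPM in KO GM. WT cells had 15.2, 16.3 and 18.2 CPM in DM, against 10.5, 9.24 and 10.7 CPM in GM. WT DM stood alone, with a WT rise of 0.71 ± 0.14 (edgeR adjusted p = 0.00051) and a difference of the responses of -0.79 ± 0.20 (0.0167). Of 11 tested genes of fatty acid elongation and desaturation, 6 rose and 3 fell in KO-labelled cells, and 5 rose and 3 fell in WT cells. Fads2, which desaturates polyunsaturated fatty acids, rose by 1.57 ± 0.10 in KO-labelled and 1.71 ± 0.10 in WT cells.

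Of 13 genes of sterol uptake, storage and export from lysosomes, 3 rose and 3 fell in KO-labelled cells, and 2 rose and 3 fell in WT cells. Soat1, which esterifies cholesterol for storage, had 52.9, 57.1 and 47.9 CPM in KO DM, against 125, 141 and 104 CPM in KO GM. It had 59.6, 67.6 and 61.5 CPM in WT DM, against 113, 112 and 97.4 CPM in WT GM. The media were apart under both labels, a fall of 1.23 ± 0.10 in KO-labelled and 0.77 ± 0.10 in WT cells. The difference of the responses of Soat1 was -0.46 ± 0.14 (edgeR adjusted p = 0.0472). In this list 1 such difference was called positive, Lrp1 (0.53 ± 0.15, edgeR adjusted p = 0.0332), and 3 negative. Larger than that of Soat1 were Lrp8 (-0.70 ± 0.21, edgeR adjusted p = 0.0363) and Tmem97 (-0.52 ± 0.13, 0.0172). Of 8 tested genes of oxysterol response and efflux, 5 rose in KO-labelled cells, and 2 rose and 1 fell in WT cells. Apoe, a carrier of exported cholesterol, was 11.1, 8.12 and 10.5 CPM in KO DM, against 42.3, 33.2 and 38.02 CPM in WT DM, and 2.15, 2.08 and 3.19 CPM in KO GM, against 22.1, 20.1 and 25.8 CPM in WT GM. All KO-labelled libraries lay below all WT libraries of Apoe, at -1.93 ± 0.15 in DM and -3.18 ± 0.19 in GM (edgeR adjusted p = 1.58e-09 and 3.61e-11), and the difference of the responses was positive, 1.25 ± 0.25 (0.00285). Of 12 glycerolipid genes 4 rose and 4 fell in KO-labelled cells, and 2 rose and 3 fell in WT cells. Dgat1 among them, which makes triacylglycerol, had a difference of the responses of 0.72 ± 0.16 (edgeR adjusted p = 0.00618). The largest change of this list in DM was a fall of Dgat2, by 1.52 ± 0.24 in KO-labelled and 1.28 ± 0.22 in WT cells. Plin2 also fell, by 1.24 ± 0.22 and 0.94 ± 0.22.

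Differentiation and proliferation genes were also called in these contrasts, in which the shares over all genes are those given above. Of 12 muscle genes 11 rose in DM in KO-labelled cells and 12 in WT cells, and 10 were lower in KO DM than in WT DM and 12 lower in KO GM than in WT GM. The difference of the responses was positive for 2 muscle genes, Myod1 (0.64 ± 0.12) and Des (0.52 ± 0.14), and the other 10 were not called. The 12 muscle genes summed to 3052 to 3403 CPM in KO DM, 304 to 568 CPM in KO GM, 7283 to 7458 CPM in WT DM and 1654 to 2378 CPM in WT GM, with Mef2c at 0 in KO GM. Of 10 proliferation genes 7 rose in DM in KO-labelled cells and 10 in WT cells. That direction is opposite to the cell cycle exit given above for this line. In GM 4 of the 10 were higher in KO-labelled than in WT cells. The difference of the responses was negative for 4 proliferation genes, with a median over the 10 of -0.45. The 10 genes summed to 1330 to 1398 CPM in KO DM, 919.8 to 1080 CPM in KO GM, 1252 to 1345 CPM in WT DM and 643.9 to 809 CPM in WT GM. The part of these changes in the sterol results was not tested.

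Markers of other cell types were low. The adipocyte markers Adipoq, Cidec and Lep were at 0 in all 12 libraries. The 7 adipocyte markers summed to 31.9 to 34.8 CPM in KO DM, 20.3 to 34.7 CPM in KO GM, 36.6 to 40.8 CPM in WT DM and 45.0 to 49.0 CPM in WT GM, most of it Cebpa. Ptprc and Adgre1, which define leukocytes and macrophages, were at 0 throughout, and the 5 markers of that list summed to 11.2 to 20.9 CPM over the libraries. Lyz2 among them was higher in KO DM than in WT DM (2.10 ± 0.26, edgeR adjusted p = 1.25e-06), at 7.003 to 9.42 CPM in KO DM and 1.497 to 2.25 CPM in WT DM. Hepatocyte, endothelial and epithelial markers each summed to under 1 CPM in every library.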

How the data were processed

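RNA was measured in 12 libraries of C2C12 cells. The authors deposited whole-number read counts per Ensembl gene with no normalization, and no library-size correction was applied before deposit as far as the values show. The build GRCm39 and the tools DESeq2 1.40.2, RSEM 1.3.3, STAR 2.7.1a and R 4.3.1 were used, per the submitters' processing notes. These do not say which tool counted, with which strand setting or annotation. A set of 4 empty columns was left aside. Symbols were found for 52083 of 55416 genes.

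The analysis used edgeR 4.0.16 in R 4.3.3. filterByExpr kept 13250 genes with 99.9% of all counts, library sizes were scaled by TMM, and 1 robust quasi-likelihood model took in the 12 libraries, each group having its own mean. The 5 contrasts were tested 2-sided, p-values were adjusted by Benjamini-Hochberg over all genes tested, and the threshold was 0.05. The SE is the log2 fold change divided by the square root of F. Before use, the procedure was tested on simulated data. With 3 counts as the limit that a count of 0 allows, the floor was 0.26 to 0.346 CPM per library. Floors cover counting error only. Levels per kilobase used the length of the principal transcript, and exon overlaps came from GENCODE M21 (GRCm38). No coordinate of that build was set against the authors' build.

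The 30 genes, 14 further lists of 123 genes and the tests were chosen with earlier results of these data known. All 30 genes are named, as is Mapk14. Of each further list, up to 3 genes per contrast could be named, ranked by size of change and restricted to those called that reached 5 CPM in 1 of the groups compared; the text gives part of them. Values of Mef2c, Adipoq, Cidec, Lep, Ptprc and Adgre1 are given as marker levels. The difference of the responses of Soat1 is given outside that ranking. The alternatives were median-of-ratios, upper-quartile and total-count scaling, DESeq2 1.42.0, limma-voom (limma 3.58.1), no filter and a filter of 1 CPM and 10 counts in 3 libraries, no robust estimation, only the groups compared, a replicate block, and leaving out libraries.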

Additional observations from a re-analysis of the deposited data

Results flagged for a closer look

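The response to DM differed between KO-labelled and WT cells, by a direct test of the difference, for 7 of the 30 genes. The difference in log2 fold change, KO-labelled minus WT, was -0.71 for Idi1, -0.39 for Sqle, -0.66 for Msmo1, -0.56 for Sc5d, -1.03 for Dhcr7, -1.02 for Stard4 and -0.58 for Elovl6 (edgeR adjusted p = 0.0031 to 0.035). Dhcr7 stood at 23.5 to 25.9 CPM in KO DM, against 49.2 to 56.7 CPM in WT DM, and Stard4 at 15.3 to 22.2 CPM in KO DM, against 33.7 to 42.3 CPM in WT DM.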

How the results depend on the processing

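No call among the 30 genes changed direction under any alternative. All alternatives kept 20 of 23 calls in KO DM against KO GM, 24 of 26 in WT DM against WT GM, 9 of 15 in KO DM against WT DM, 6 of 8 in KO GM against WT GM, and 3 of 7 in the difference of responses. Leaving out 1 library at a time gave 21 to 24, 24 to 27, 10 to 16, 7 to 10 and 4 to 10 genes called, the 4 without WT DM replicate 3. For the difference of responses over all genes, 1174 were called, 693 to 1920 when 1 library was left out (693 without WT DM replicate 2, 735 without KO GM replicate 1, 741 without KO GM replicate 2, 754 without KO DM replicate 1 and 1920 without KO GM replicate 3) and 2709 without both GM replicate 3 libraries, where 12 of the 30 were called. For that contrast 40.7% of called genes were positive, and 57.8% with total counts alone, while 7 of the 30 stayed negative under each scaling. The cause was not tested. Correlations of same-numbered libraries of different groups were -0.0851 to 0.186 (18 pairs, median 0.0483). Those of libraries with different numbers were -0.259 to 0.210 (36 pairs, median -0.0242). Such weak correlations cannot tell whether a replicate number marks a shared day or batch. With the replicate block, 24, 26, 16, 10 and 7 of the 30 genes were called, and 1587 genes for the difference of responses. Depth limits Tm7sf2 most, with 27 counts in KO GM replicate 2.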
